A study of Mus musculus with 768 samples.

Results

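The BMP (bone morphogenetic protein) pathway was followed through 9 genes, chosen by symbol: the ligands Bmp2, Bmp4, Bmp5 and Gdf10, the secreted antagonists Grem1, Nbl1 and Bmper, and the receptors Bmpr1a and Bmpr2. They are 9 of the 24490 endogenous genes in the tables. BMPs are secreted dimers of the TGF-β family that bring type I and type II serine/threonine kinase receptors together on the receiving cell, after which receptor-activated Smad proteins enter the nucleus. Antagonists bind the ligands outside the cell and keep them from the receptors. In stromal tissue the pathway is known for its part in vessel coverage, in patterning during development and in the exchange between fibroblasts and epithelium.

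The cells were cancer-associated fibroblasts (CAFs) from 2 mammary tumors of mice of the strain FVB/N-Tg(MMTVPyVT)634Mul/J, aged 14 weeks, in which the mouse mammary tumor virus promoter drives the polyoma middle T oncogene, mainly in mammary epithelium. Live cells negative for EpCAM, CD45, CD31 and NG2 were sorted 1 per well and sequenced by Smart-seq2, a full-length method without molecular identifiers, with 384 wells for each tumor. Each tumor filled 1 plate, so tumor and plate cannot be told apart, and no normal tissue was among the samples. The tumor was the replicate (n = 2).

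Of 768 wells, 727 had at least 10000 endogenous reads (10281 to 1190516, median 207477). They were divided by 3 genes: 504 wells were Rgs5-high (263 in tumor 1 and 241 in tumor 2), 168 were Dcn-high (88 and 80), 32 were Trf-high (9 and 23), and 23 were in no class. Rgs5 marks mural and other perivascular cells, Dcn encodes the matrix proteoglycan decorin, and Trf encodes transferrin. Counts were summed per class and tumor into 6 libraries, and levels of these are given as CPM, the reads of a gene scaled to the library's endogenous reads. The list of 10 vascular markers summed to 14805 and 17010 CPM in the Rgs5-high libraries against 285 to 1659 CPM in the others, and the 10 matrix markers to 16126 and 15225 CPM in the Dcn-high libraries against 365 to 4598 CPM. The 7 markers of the Trf-high class (Mia, Scrg1, Sox9, Sox10, Lcn2, Spint2 and Igfbp5) summed to 11159 and 10854 CPM there against 34.4 to 1442 CPM elsewhere. Igfbp5 alone had 7325 and 7736 CPM in the Trf-high and 1235 and 1335 CPM in the Dcn-high libraries. Each of these 3 lists holds genes that the authors named from the same cells. The sums therefore describe the classes and are no independent check of them. The 6 epithelial markers summed to 1625 and 197 CPM in the Trf-high libraries of tumors 1 and 2 and to 5.59 to 30.9 CPM in the rest. The comparisons were also made without the wells that held an Epcam read, and the calls this ended are given beside the results. Endothelial markers (4 genes) reached at most 5.40 CPM and immune markers (4 genes) at most 11.6 CPM, with Pecam1 read in only 1 library and Ptprc in only 1. The 4 cycling markers summed to 359 and 380 CPM in the Rgs5-high libraries and to 2.19 to 60.1 CPM in the others.

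Of the 3 ligands among the 9 genes that were tested (Bmp2, Bmp5 and Gdf10), Bmp5 and Gdf10 were called different between classes, and the stretches before their starts are shown because they differ in base composition. Both are the 250 bases before the gene's start in the RefSeq promoter table of GRCm38.p6 (the assembly of mm10, from the C57BL/6J reference), which held a window for 8 of the 9 genes and not for Bmp2. Capitals mark each CpG dinucleotide. The Bmp5 stretch is chr9:75775115-75775364 on the plus strand and the Gdf10 stretch is chr14:33923337-33923586 on the plus strand.

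Bmp5: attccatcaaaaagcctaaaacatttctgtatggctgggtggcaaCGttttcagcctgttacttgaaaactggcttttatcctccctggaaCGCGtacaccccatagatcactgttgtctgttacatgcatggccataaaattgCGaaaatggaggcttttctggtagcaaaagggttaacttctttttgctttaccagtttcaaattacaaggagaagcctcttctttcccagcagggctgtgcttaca
Gdf10: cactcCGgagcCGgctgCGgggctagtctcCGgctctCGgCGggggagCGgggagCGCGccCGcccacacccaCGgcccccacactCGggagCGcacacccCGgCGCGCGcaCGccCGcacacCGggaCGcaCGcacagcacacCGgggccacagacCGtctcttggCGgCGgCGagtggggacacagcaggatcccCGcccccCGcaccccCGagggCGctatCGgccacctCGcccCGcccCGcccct

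The Bmp5 stretch had a GC content of 42.8% and 4 CpGs, and 17.9% of the 32851 windows in the table had a lower GC content. The Gdf10 stretch had a GC content of 78.8% and 35 CpGs, above 98.3% of the windows. Among the 8 genes with a window, Bmp5 was the only one below the median GC content of all windows (52.4%), and the other 7 lay between 63.2% and 78.8%. The letters GGCGCC, a GC-rich sequence that Smad1 and Smad5 are known to bind, were searched on both strands. They were found in the windows of Grem1, Nbl1, Bmpr1a and Bmpr2, and in 9.59% of all windows. TGGGAA, the core letters bound by RBPJ of the Notch pathway, were found in the windows of Bmp5, Bmpr1a and Bmpr2, and in 21.6% of all windows. TATAAA was found in none of the 8 and in 12.4% of all windows. The Bmpr1a window (34502547 to 34502796) lies inside the gene span given below, and the Nbl1 window (139092971 to 139093220) partly inside its span.

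Bmp5, a ligand of the BMP5/6/7 branch, was higher in Rgs5-high than in Dcn-high and Trf-high cells. Its gene lies on chromosome 9 (75775365 to 75900316, plus strand). The Rgs5-high libraries held 45.6 CPM in tumor 1 and 52.5 CPM in tumor 2, the Dcn-high libraries 1.23 and 0.216 CPM, and the Trf-high libraries 0 and 0.432 CPM. Both Rgs5-high libraries were above all 4 others, which did not overlap with them. Outside the classes, the 13 wells of tumor 1 in no class held 46.1 CPM, level with the Rgs5-high library, with reads in 2 wells, and the 10 of tumor 2 held 0. Of the Rgs5-high wells, 25.9% in tumor 1 (20.7 to 31.6%, exact 95% binomial interval) and 24.9% in tumor 2 (19.6 to 30.9%) held a Bmp5 read. In Dcn-high wells the shares were 5.68% (1.87 to 12.8%) and 5.00% (1.38 to 12.3%). All intervals and limits here cover counting error only. Those of fold differences treat every read as independent, although the reads of a well come from 1 cell, so they are too narrow. With every well thinned to 50000 reads, and shallower wells left out, the expected shares were 24% and 23.1% in Rgs5-high wells and 2.67% and 1.42% in Dcn-high wells.

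Bmp5 was uneven among Rgs5-high cells. The median well had an RPKM (reads scaled to gene length and to the total of the well) of 0, the wells with a read had medians of 44.9 and 53.7 RPKM in tumors 1 and 2, and the highest wells had 205 and 452 RPKM. The well with the most Bmp5 reads held 7.05% and 7.75% of the reads of its library, so the level did not rest on 1 cell. In the Dcn-high library of tumor 1, by contrast, 15 of the 28 Bmp5 reads came from 1 well.

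In the edgeR quasi-likelihood fit over 6 libraries and 11712 genes, Bmp5 was higher in Rgs5-high than in Dcn-high cells by 5.77 on the log2 scale (SE 1.08, adjusted p = 0.045). Over the same contrast 1.93% of all genes tested were called higher in Rgs5-high cells and 3.59% lower, and Bmp5 was the 1 gene called of the 7 BMP genes tested. Trf-high cells had less Bmp5 than Rgs5-high cells, by 7.56 on the log2 scale (SE 1.31, edgeR adjusted p = 0.025). The Trf-high cells held 2 reads in all, which gives a level 169-fold lower with an exact counting interval of 46.6 to 1392. Of the Trf-high wells of tumor 1, 0 of 9 held a Bmp5 read, which allows a share of up to 33.3%. In tumor 2 it was 2 of 23 (8.70%, 1.07 to 28.0%). The Rgs5-high shares of 25.9% and 24.9% lie within these limits, so a lower share of wells was not detectable. With the tumor as a block, since both libraries of a tumor share an animal, neither edgeR call held (adjusted p = 0.1 for Rgs5-high against Dcn-high and 0.057 for Trf-high against Rgs5-high). Between Trf-high and Dcn-high cells the Bmp5 difference was -1.80 (SE 1.31, edgeR adjusted p = 0.46). The call against Dcn-high cells ended in 7 of 15 alternatives. Beside the block and a stricter threshold of 0.001, these were ERCC totals (spike-in RNAs) as the library size (edgeR adjusted p = 0.055), edgeR's own filter on low counts (0.052), a higher cut for the classes (0.053), every well scaled to the same total (0.056) and no cycling wells (0.058). The log2 difference stayed between 5.18 and 6.61 over the 15, and the adjusted p ran from 1.2e-07 to 0.1. For Trf-high against Rgs5-high cells the adjusted p ran from 1.9e-06 to 0.057, and the block and the stricter threshold alone ended the call.

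**Figure D1:**
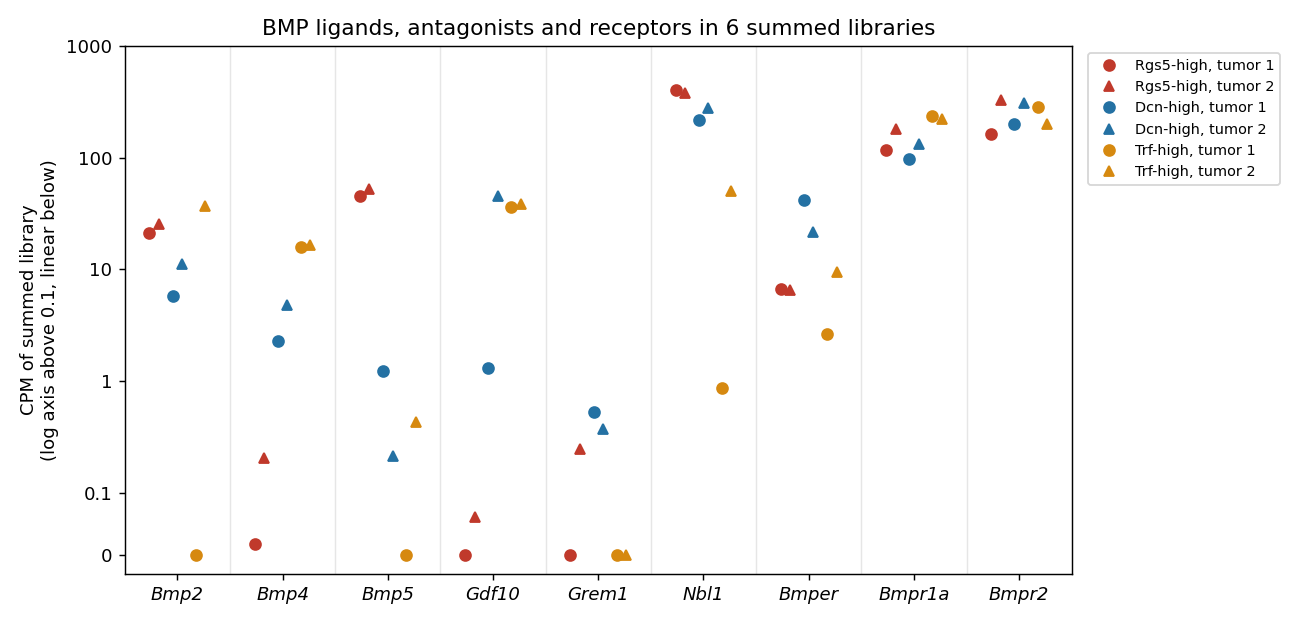
Level of each of the 9 genes (x axis) in CPM (y axis, logarithmic above 0.1 and linear below) in the libraries summed over the wells of a class in 1 tumor, with circles for tumor 1 and triangles for tumor 2. Bmp5 is at 45.6 and 52.5 CPM in Rgs5-high libraries and at 1.23 CPM or less in the others, and Gdf10 is at 0 and 0.0619 CPM in Rgs5-high libraries.

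Gdf10, also called Bmp3b, is a divergent member of the ligand family. Its gene lies on chromosome 14 (33923587 to 33936514, plus strand). Gdf10 was all but absent from Rgs5-high cells, with 0 and 0.0619 CPM in tumors 1 and 2, and it reached 1.31 and 45.5 CPM in Dcn-high and 36.0 and 38.9 CPM in Trf-high libraries. The Rgs5-high libraries lay below all 4 others. The 2 Dcn-high libraries were far apart, and the Trf-high values lay between them.

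Only 18 of the 727 wells held a Gdf10 read. They were 3 of 504 Rgs5-high wells with 1 read each, 9 Dcn-high wells (1 in tumor 1 and 8 in tumor 2) and 6 Trf-high wells (1 and 5). The wells with a read in tumor 2 ran from 27.7 to 539 RPKM in Dcn-high and from 8.67 to 73.6 RPKM in Trf-high cells. In tumor 1, 1 Dcn-high well carried all 30 reads and 1 Trf-high well carried all 82. Every Dcn-high or Trf-high well with a Gdf10 read had at least 8.67 RPKM.

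Trf-high cells had more Gdf10 than Rgs5-high cells, by 9.98 on the log2 scale (SE 2.27, edgeR adjusted p = 0.049). From the 3 reads of the Rgs5-high libraries, the level in Trf-high cells was 1313-fold higher, with a counting interval of 444 to 6406. The interval takes reads as independent, although the 262 Trf-high reads came from 6 wells. In this contrast 4.78% of all genes tested were called higher in Trf-high cells and 6.67% lower, and of the 7 BMP genes tested Gdf10 was called higher and Bmp5 lower. The Gdf10 call was lost in 7 of 15 alternatives. Beside the threshold of 0.001, these were the tumor as a block (edgeR adjusted p = 0.056), edgeR's own filter (0.054), wells with at least 50000 reads (0.12), no wells high for more than 1 class gene (0.12), no cycling wells (0.052) and no well with the most Gdf10 reads in each library (0.22), the last chosen after seeing the data. The log2 difference stayed between 8.02 and 11.06, and the adjusted p ran from 2.4e-07 to 0.22. Between Rgs5-high and Dcn-high cells the difference was -9.67 (SE 2.25), which missed the threshold in edgeR (adjusted p = 0.079) and passed it in DESeq2 (7.8e-07). The reads give a level 730-fold lower in Rgs5-high cells, with a counting interval of 249 to 3549. Tumor 2 held 844 of the 874 Dcn-high reads, and in tumor 1 the Rgs5-high library had no Gdf10 read and 1 Dcn-high well had all 30, so that tumor alone gives no fold. Between Trf-high and Dcn-high cells the difference was 0.31 (SE 1.48, edgeR adjusted p = 0.93), which turned to -0.54 with every well scaled to the same total. Leaving out the wells with an Epcam read ended neither the Bmp5 nor the Gdf10 call between Trf-high and Rgs5-high cells.

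Bmp4, the ligand closest to Bmp2 in sequence, was highest in Trf-high and lowest in Rgs5-high cells. It lies on chromosome 14 (46383525 to 46390669, minus strand) and overlaps the RNA gene Gm15217, which had 4 reads in all wells. The Rgs5-high libraries had 0.0181 and 0.206 CPM, the Dcn-high libraries 2.28 and 4.85 CPM, and the Trf-high libraries 15.8 and 16.4 CPM. The 3 pairs of libraries did not overlap. Bmp4 had a mean of 0.734 RPKM over the classed wells, most of them Rgs5-high, and so did not pass the filter of 1 RPKM set for the tests. Its reads came from 2 Rgs5-high, 7 Dcn-high and 4 Trf-high wells, and 1 Trf-high well held all 36 reads of tumor 1 and another 84.2% of those of tumor 2. The reads over both tumors were 11 in Rgs5-high and 112 in Trf-high cells, a level 153-fold higher in Trf-high cells with a counting interval of 82.3 to 315. In edgeR without the filter the difference between Trf-high and Rgs5-high cells was 6.94 on the log2 scale (SE 1.5, adjusted p = 0.033). The other contrasts of that fit did not pass, with -5.18 between Rgs5-high and Dcn-high (adjusted p = 0.11) and 1.76 between Trf-high and Dcn-high cells (0.47).

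Bmp2, the other classical ligand, was called in no contrast. Its gene lies on chromosome 2 (133552159 to 133562896, plus strand). The Rgs5-high libraries had 21.3 and 25.4 CPM, the Dcn-high libraries 5.73 and 11.2 CPM, and the Trf-high libraries 0 and 36.7 CPM. The Rgs5-high values lay above the Dcn-high ones, while the 2 Trf-high libraries were the lowest and the highest of all 6. A read was found in 17.5% (13.1 to 22.6%) and 16.2% (11.8 to 21.5%) of Rgs5-high wells and in 11.4% (5.59 to 19.9%) and 11.2% (5.28 to 20.3%) of Dcn-high wells. In tumor 2, 3 Trf-high wells held Bmp2, and 1 of them had 74.7% of the reads. The 9 Trf-high wells of tumor 1 had none, which allows a share of up to 33.3%. Its edgeR adjusted p ran from 0.82 to 0.9. The difference between Rgs5-high and Dcn-high cells was 1.18 with an SE of 1.62.

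Bmp2 and Bmp5 reads met in Rgs5-high wells about as often as those of genes read independently of each other would. Of the 504 Rgs5-high wells, 85 held Bmp2, 128 held Bmp5 and 22 held both, beside 21.6 for independent reads. In Trf-high cells, 3 of the 4 wells with Bmp4 were among the 6 wells with Gdf10, beside 0.750 for independent reads, and these counts are too small to compare. At least 1 of the 4 ligands was read in 38.3% of Rgs5-high, 23.2% of Dcn-high and 31.2% of Trf-high wells. More than 1 was read in 4.56%, 2.98% and 9.38%.

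**Figure D2:**
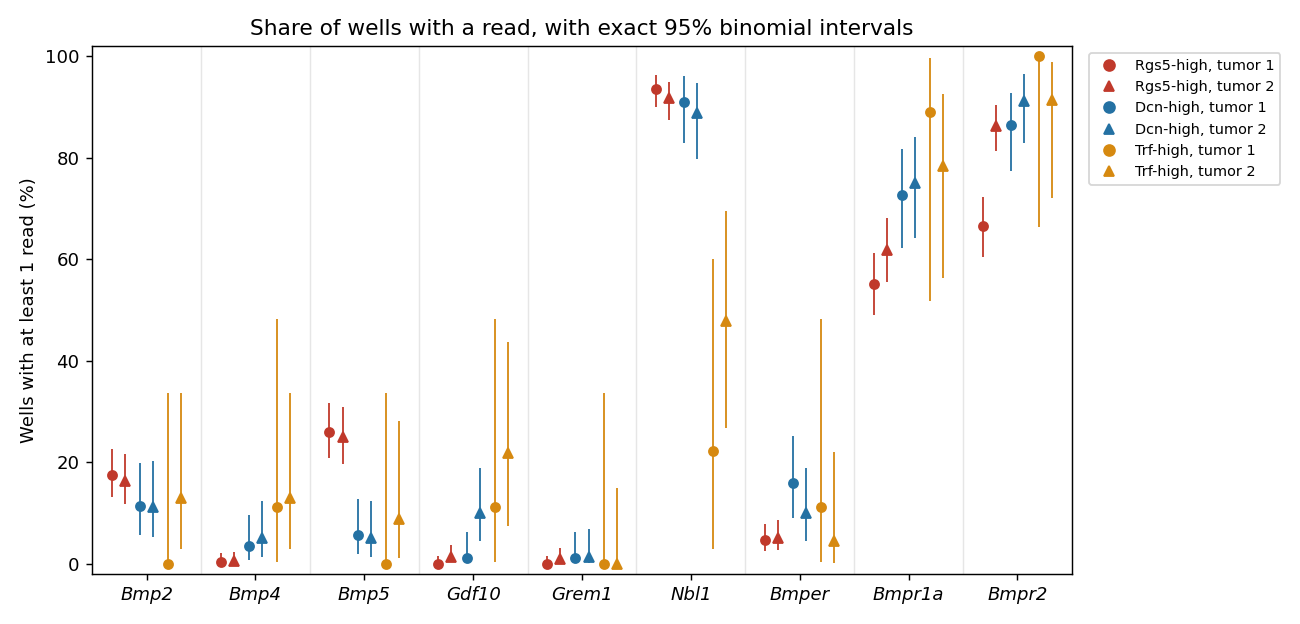
Share of wells with at least 1 read (y axis, percent) of each gene (x axis) by class and tumor, with exact 95% binomial intervals as bars. Nbl1 and both receptors are read in most wells of most classes, while a Bmp5 read is present in 25.9% and 24.9% of Rgs5-high wells and the other ligands stay below 22% in every class and tumor.

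Among the antagonists, Nbl1 (also called DAN, a secreted cystine-knot protein) was the most widely read, and it was low in Trf-high cells. Its gene lies on chromosome 4 (139082291 to 139093126, minus strand). The Rgs5-high libraries had 406 and 380 CPM, the Dcn-high libraries 217 and 277 CPM, and the Trf-high libraries 0.878 and 50.8 CPM. Both Trf-high libraries were below the other 4, and the Rgs5-high libraries were above the Dcn-high ones. A read was present in 93.5% (89.9 to 96.2%) and 91.7% (87.5 to 94.9%) of Rgs5-high wells, in 90.9% (82.9 to 96.0%) and 88.8% (79.7 to 94.7%) of Dcn-high wells, and in 22.2% (2.81 to 60.0%) and 47.8% (26.8 to 69.4%) of Trf-high wells. The median well had 159 and 143 RPKM in Rgs5-high, 83.6 and 111 RPKM in Dcn-high and 0 RPKM in the Trf-high cells of both tumors.

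The size of the Nbl1 difference rested on few Trf-high cells. In tumor 1, 2 of 9 Trf-high wells held 1 Nbl1 read each. In tumor 2, 11 of 23 wells held 235 reads, and 1 of these wells had 46.8% of them. Nbl1 was lower in Trf-high cells by 3.60 on the log2 scale against Dcn-high (SE 1.30, edgeR adjusted p = 0.16) and by 3.99 against Rgs5-high (SE 1.32, edgeR adjusted p = 0.12), which did not pass the threshold. These differences were -2.83 and -3.0 without tumor 1, and -8.20 and -8.81 without tumor 2. Without wells high for more than 1 of the 3 class genes, which left 6 and 19 Trf-high wells, both differences passed it in edgeR (-5.61, adjusted p = 0.012, and -6.03, adjusted p = 0.0092). In DESeq2 both passed as well (adjusted p = 0.022 and 0.0083). Rgs5-high and Dcn-high cells differed by 0.39 in Nbl1 (SE 1.16, edgeR adjusted p = 0.95), a direction that turned to -0.23 when the totals of the ERCC spike-ins, control RNAs added to each well, set the library size.

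Bmper, a secreted regulator that binds BMPs and chordin, was highest in Dcn-high cells among the 3 classes. Its gene lies on chromosome 9 (23223076 to 23485215, plus strand). The Dcn-high libraries had 42.2 and 21.5 CPM, the Rgs5-high libraries 6.69 and 6.60 CPM, and the Trf-high libraries 2.63 and 9.51 CPM. Both Dcn-high libraries were above the other 4. The wells in no class held 22.8 and 43.9 CPM of Bmper, as high as the Dcn-high libraries, from 3 wells in all. It was read in 15.9% (8.98 to 25.2%) and 10.0% (4.42 to 18.8%) of Dcn-high wells and in 4.56% (2.38 to 7.83%) and 4.98% (2.60 to 8.54%) of Rgs5-high wells. In each Trf-high library all Bmper reads came from 1 well, with 6 reads in tumor 1 and 44 in tumor 2.

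The differences in Bmper were -2.55 in Rgs5-high (SE 0.75, edgeR adjusted p = 0.14) and -2.75 in Trf-high cells (SE 0.77, edgeR adjusted p = 0.094), both against Dcn-high cells. DESeq2 called both (adjusted p = 0.0063 and 0.0035). Trf-high and Rgs5-high cells differed by -0.20 (edgeR adjusted p = 0.9). In the contrast of Trf-high with Dcn-high cells 2.43% of all genes tested were called higher and 5.79% lower in edgeR, and none of the 7 BMP genes was called. Of the 7, 2 had an unadjusted p under 0.05 and DESeq2 called 2, Bmper and Nbl1. Of all 11712 genes tested, 2971 had an unadjusted p under 0.05 and DESeq2 called 2704.

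Grem1, a secreted antagonist that binds BMP2 and BMP4, was close to absent. Its gene lies on chromosome 2 (113748675 to 113758648, minus strand). A read was present in 4 of 727 wells, 2 of them Rgs5-high and 2 Dcn-high, with 31 reads in all. The libraries had 0 and 0.248 CPM in Rgs5-high, 0.525 and 0.377 CPM in Dcn-high and 0 in both Trf-high, where 3 reads would have been 0.434 CPM. The 12 Rgs5-high and 19 Dcn-high reads give a level 3.97-fold lower in Rgs5-high cells, with a counting interval of 1.83 to 8.97. As these reads came from 4 wells, a difference between classes cannot be judged. Grem1 (mean of 0.116 RPKM) was below the filter for the tests, and without the filter no contrast passed (edgeR adjusted p = 0.52 to 0.85).

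**Figure D3:**
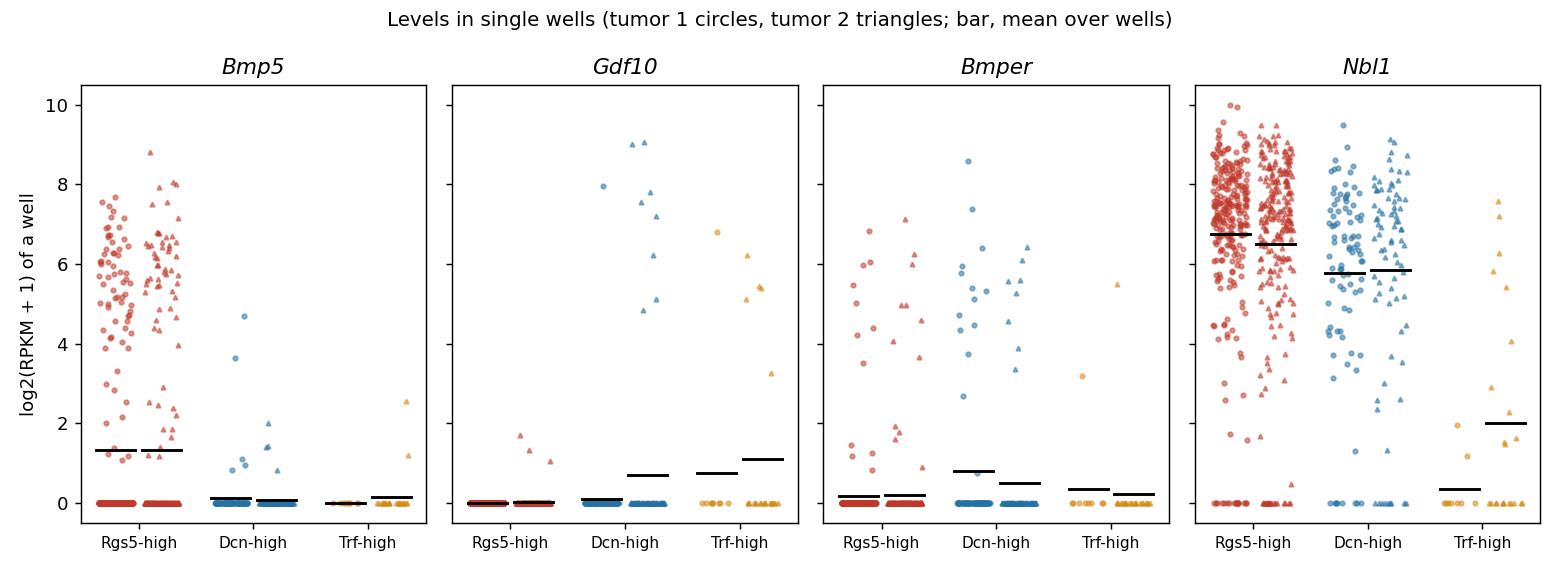
Level of Bmp5, Gdf10, Bmper and Nbl1 in single wells as log2(RPKM + 1) (y axis) by class (x axis), with circles for tumor 1, triangles for tumor 2 and a bar at the mean over wells. The Bmp5, Gdf10 and Bmper panels show most wells at 0 and a minority well above it, and the Nbl1 panel shows most Rgs5-high and Dcn-high wells above 0.

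Both receptors were read in every class and called in no contrast. Bmpr1a, a type I receptor (chromosome 14, 34411061 to 34503336, minus strand), had 117 and 182 CPM in the Rgs5-high, 96.8 and 132 CPM in the Dcn-high and 238 and 223 CPM in the Trf-high libraries. The Trf-high values were above the other 4, which overlapped with each other. The difference was 0.63 between Trf-high and Dcn-high cells (SE 0.29, edgeR adjusted p = 0.25) and 0.53 between Trf-high and Rgs5-high cells (SE 0.29, edgeR adjusted p = 0.32). Rgs5-high and Dcn-high cells differed by 0.10 (SE 0.29, edgeR adjusted p = 0.95), and this turned to -0.50 with ERCC totals as the library size. Bmpr1a was read in 55.1% and 61.8% of Rgs5-high, 72.7% and 75.0% of Dcn-high, and 88.9% and 78.3% of Trf-high wells. Thinned to 50000 reads, these shares were 49.4% and 58.6%, 63.7% and 72.2%, and 88.9% and 77.2%.

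Bmpr2, the type II receptor for BMPs (chromosome 1, 59764279 to 59878081, plus strand), was not ordered by class. The libraries of tumors 1 and 2 had 162 and 325 CPM in Rgs5-high, 202 and 308 CPM in Dcn-high, and 287 and 201 CPM in Trf-high cells. The 3 classes overlapped, and tumor 2 was the higher one in Rgs5-high and Dcn-high and the lower one in Trf-high cells. The differences were -0.35 between Rgs5-high and Dcn-high and -0.44 between Trf-high and Dcn-high cells (SE 0.42 for both, edgeR adjusted p = 0.82 and 0.57). Between Trf-high and Rgs5-high cells it was -0.09 (SE 0.42, edgeR adjusted p = 0.92), which turned to 0.41 with ERCC totals and 0.13 with every well scaled to the same total. Among Rgs5-high wells, Bmpr2 was read in 66.5% in tumor 1 (60.5 to 72.2%) and 86.3% in tumor 2 (81.3 to 90.4%), and in 59.9% and 80.9% after thinning. The intervals cover counting over wells only, and with 1 plate for each tumor this gap was not tested. Both receptors were read together in 46.4% of Rgs5-high, 68.5% of Dcn-high and 81.2% of Trf-high wells.

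**Figure D4:**
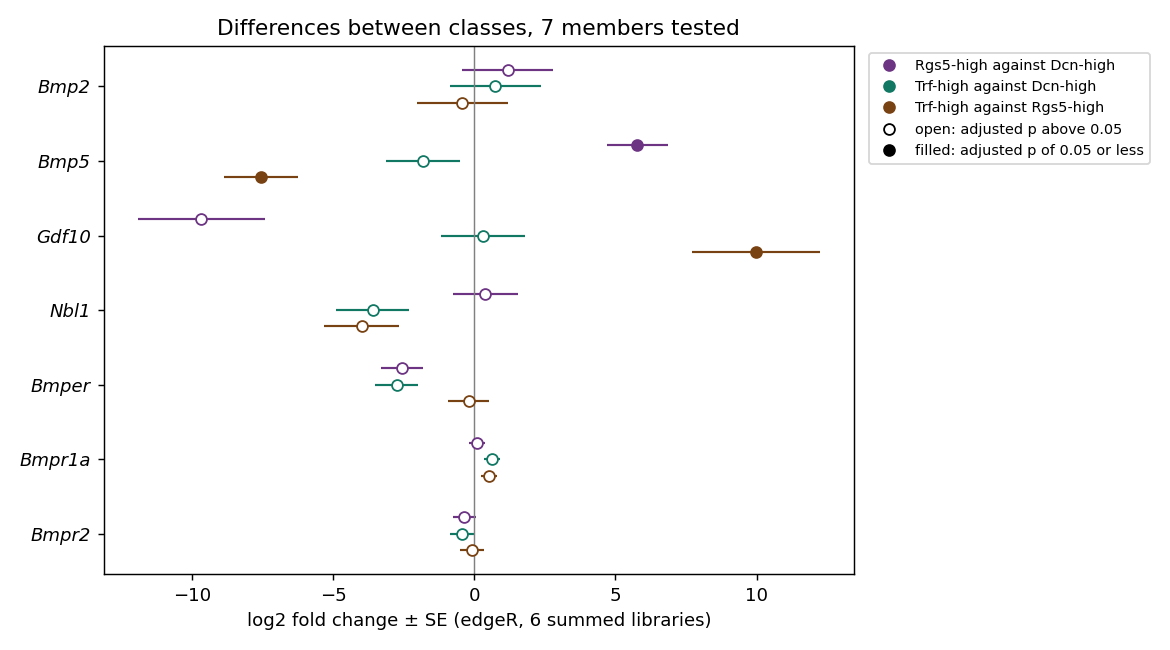
Differences between classes on the log2 scale (x axis, log2 fold change with its SE as a bar) for the 7 genes tested (y axis), with filled points for an edgeR adjusted p of 0.05 or less. The filled points are Bmp5 at 5.77 and -7.56 and Gdf10 at 9.98, and the Bmpr1a and Bmpr2 points lie within 0.63 of 0.

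On the scale of RPKM, which takes gene length into account, the order of the 9 genes differed by class. In Rgs5-high cells Nbl1 led with a mean of 189 RPKM ± 5.28 (SD, n = 2), followed by Bmpr1a (23.2 ± 6.87), Bmpr2 (19.8 ± 10.2) and Bmp5 (16.4 ± 2.53), and these 3 lay within their spread of each other. Bmp2 (5.25 ± 0.0790) and Bmper (1.52 ± 0.173) came next, and the remaining 3 were at 0.0870 RPKM or less. In Dcn-high cells Nbl1 also led (126 ± 13.3), ahead of Bmpr2 (21.9 ± 8.11), Bmpr1a (19.8 ± 4.62), Gdf10 (12.3 ± 13.4) and Bmper (7.44 ± 4.69), of which neighbours overlapped within their spread. In Trf-high cells Bmpr1a (37.5 ± 7.79) and Bmpr2 (21.9 ± 10.6) had the highest means, beside Nbl1 (12.1 ± 16.4), Gdf10 (10.6 ± 2.62) and Bmp4 (7.50 ± 4.60), and the order differed between tumors: Nbl1 was above Bmpr2 in tumor 2 (23.7 and 14.4 RPKM) and below Gdf10 in tumor 1 (0.462 and 12.4 RPKM). The members tested had a median difference of 0.10 between Rgs5-high and Dcn-high, -0.44 between Trf-high and Dcn-high and -0.20 between Trf-high and Rgs5-high cells, where all genes had 0.04, -0.10 and -0.10. With ERCC totals as the library size, the median of all genes moved to -0.57, -0.14 and 0.46.

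Over single wells, the genes most like Nbl1 were Igfbp7 (Pearson r of log2(RPKM + 1) of 0.45 over 373 wells of tumor 1 and 0.51 over 354 wells of tumor 2), Pdgfrb (0.43 and 0.49) and Serping1 (0.42 and 0.44). Igfbp7 encodes a secreted protein that binds growth factors, Pdgfrb a receptor for platelet-derived growth factor and Serping1 the C1 inhibitor of complement. The wells of a tumor share a plate, differ in depth and come from all classes. For Bmpr1a and Bmpr2 no gene reached an r of 0.4 in both tumors.

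The 47 other genes of the pathway were counted by role, and 33 passed the filter. Of these, 0 were called higher and 3 lower in Rgs5-high than in Dcn-high cells (12 at an unadjusted p under 0.05 and 10 called by DESeq2, in either direction), 3 higher and 5 lower in Trf-high than in Dcn-high cells (15 and 14), and 5 higher and 4 lower in Trf-high than in Rgs5-high cells (16 and 15) by edgeR at an adjusted p of 0.05. Over all genes tested, 1.93% were called higher and 3.59% lower in the first contrast, 2.43% and 5.79% in the second and 4.78% and 6.67% in the third. Of all 11712 genes tested, 2056, 2971 and 3185 had an unadjusted p under 0.05 in the 3 contrasts. DESeq2 called 1782, 2704 and 2910 of all genes. The median differences of the 33 pathway genes were -0.46, -1.24 and -1.06, also with genes without a read in a class set at their limits. The 3 contrasts share libraries. Among the 10 other ligands, of which 4 were tested, Bmp7 was called. Bmp7, a relative of Bmp5, had 0.0181 and 0 CPM in Rgs5-high, 21.1 and 38.6 CPM in Dcn-high and 71.1 and 133 CPM in Trf-high libraries, with no overlap between classes and with the Rgs5-high libraries lowest, where they were highest for Bmp5. The single read in Rgs5-high cells gives a level 3004-fold lower than in Dcn-high cells with a counting interval of 538 to 118736. Both Bmp7 contrasts with Rgs5-high cells were called in edgeR (adjusted p = 0.0055 against Dcn-high and 0.0028 between Trf-high and Rgs5-high) and stayed called with the tumor as a block (0.018 and 0.0099). Trf-high and Dcn-high cells differed by 1.39 in Bmp7, which was not called (edgeR adjusted p = 0.19).

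Of 14 other antagonists and modulators 10 were tested and 4 were called in at least 1 contrast (1, 3 and 2 in the 3 contrasts, beside 1.93 to 6.67% of all genes for each direction and contrast), and among these the secreted Chrd and Chrdl1 had no read in either Trf-high library. Chordin (Chrd), which binds BMPs, had 0.868 and 1.11 CPM in Rgs5-high and 30.1 and 34.5 CPM in Dcn-high libraries, at least 73.7-fold higher in Dcn-high than in Trf-high cells when 3 reads over both Trf-high libraries set the limit. Its differences were called between Rgs5-high and Dcn-high cells (-5.30, edgeR adjusted p = 0.025, and 0.074 with the block and 0.051 with every well scaled to the same total) and between Trf-high and Dcn-high cells (0.013, and 0.045 with the block). Of the Dcn-high wells 38.6% (28.4 to 49.6%) and 36.2% (25.8 to 47.8%) held a Chrd read. No read in 9 and 23 Trf-high wells allows shares of up to 33.3% and 13%, and the first of these limits lies within the Dcn-high interval of tumor 1.

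Chrdl1, a chordin-like protein, had 16 and 19 CPM in Rgs5-high and 3.20 and 0.647 CPM in Dcn-high libraries. With no read in Trf-high cells, it was called lower there than in Rgs5-high cells (edgeR adjusted p = 0.042, and 0.089 with the block), a call also lost with every well scaled to the same total (0.051) and without the wells with an Epcam read (0.057). A few wells carried the Rgs5-high level: 9 of 263 in tumor 1 and 2 of 241 in tumor 2 held a Chrdl1 read, and 1 well had 403 of the 883 reads of tumor 1 and another 848 of the 923 of tumor 2. These shares of wells (3.42% and 0.830%) lie below the limits of 33.3% and 13% in Trf-high cells, so a lower share in Trf-high cells was not detectable. Fstl1, a follistatin-like secreted protein, had 3744 and 3846 CPM in Dcn-high and 637 and 1173 CPM in Trf-high libraries, a difference of -2.46 (edgeR adjusted p = 0.019, and 0.044 with the block). Bambi, a membrane pseudoreceptor without a kinase, ran the other way, with 88.6 and 43 CPM in Trf-high libraries against 3.33 to 9.38 CPM in the rest (edgeR adjusted p = 0.041 against Dcn-high and 0.042 against Rgs5-high, and 0.089 and 0.082 with the block). Both Bambi calls also ended without the wells with an Epcam read (0.052 for each), with differences of 3.37 and 3.09.

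All 9 other receptors and co-receptors were tested, and 3 were called in at least 1 contrast (1, 2 and 3 in the 3 contrasts, beside the same 1.93 to 6.67% of all genes for each direction). The type I receptor gene Bmpr1b had 7.70 and 11.9 CPM in Rgs5-high and 3.46 and 6.36 CPM in Dcn-high libraries and no read in Trf-high cells, and it was called lower there than in Rgs5-high and Dcn-high cells (edgeR adjusted p = 0.031 and 0.044, and 0.071 and 0.095 with the block). The call against Dcn-high cells was also lost in 5 of 6 other settings (edgeR adjusted p = 0.051 to 0.054), all but DESeq2's size factors. Bmpr1b was read in 12 of 263 and 16 of 241 Rgs5-high and in 7 of 88 and 5 of 80 Dcn-high wells. These shares (4.56% to 7.95%) lie below the limits of 33.3% and 13% in Trf-high cells, so a lower share there was not detectable either. Acvrl1, a type I receptor known from endothelium, had 14.5 and 10.6 CPM in Trf-high libraries and 43.6 to 81.2 CPM in the others, with differences of -2.71 from Dcn-high and -2.64 from Rgs5-high cells (edgeR adjusted p = 0.026 and 0.023), which stayed called with the block (0.035 and 0.027). Without wells that held an Epcam read the Acvrl1 differences were -3.54 and -3.48 and neither passed (edgeR adjusted p = 0.075 and 0.068). With every well scaled to the same total they were -1.55 and -1.62 (0.21 and 0.18), and without wells high for more than 1 class gene the call against Rgs5-high cells missed at 0.051. Tgfbr3, a co-receptor, was lower in Rgs5-high libraries (76.8 and 54.2 CPM) than in the others (178 to 254 CPM), by 1.84 on the log2 scale against Dcn-high cells (edgeR adjusted p = 0.031, and 0.069 with the block), a call also lost without the Epcam wells (0.059) and without cycling wells (0.057). Against Rgs5-high cells, Trf-high cells had 1.64 more Tgfbr3 on the log2 scale (edgeR adjusted p = 0.027, and 0.058 with the block and 0.064 with every well scaled to the same total).

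Of the Smad genes, which carry the signal to the nucleus, 3 of 4 were tested and none was called in edgeR in any contrast, with 0, 1 and 1 at an unadjusted p under 0.05 and 0, 1 and 1 called by DESeq2. Over all 11712 genes tested these counts were 2056, 2971 and 3185, and 1782, 2704 and 2910 by DESeq2. Of 10 target and feedback genes 7 were tested, with 0, 3 and 3 called in the 3 contrasts, beside the same 1.93 to 6.67% of all genes for each direction. Id2 and Id4, inhibitors of helix-loop-helix transcription factors, and Hey1, a repressor known as a target of Notch and BMP signals, were each called higher in Trf-high cells in at least 1 contrast. Id1 and Id3 of the same family were not called and had values of the other sign in Trf-high cells, -2.16 and -0.62 against Dcn-high (edgeR adjusted p = 0.21 and 0.48) and -2.07 and -1.18 against Rgs5-high cells (0.21 and 0.19). Id2 had 290 and 455 CPM in Trf-high against 3.81 and 21.8 CPM in Rgs5-high libraries (edgeR adjusted p = 0.031, also 0.031 with the block). The Dcn-high libraries had 87.3 and 118 CPM of Id2, and Trf-high cells were not called against them (1.47, edgeR adjusted p = 0.3). Id4 had 213 and 145 CPM in Trf-high against 2.01 and 12.3 CPM in Dcn-high libraries (edgeR adjusted p = 0.047, and 0.09 with the block), a call also lost with ERCC totals (0.053), with equal totals (0.087) and without wells high for more than 1 class gene (0.069). The Rgs5-high libraries had 69.0 and 55.1 CPM of Id4, and Trf-high cells were not called against them (1.43, edgeR adjusted p = 0.31). Hey1 had 75.0 and 129 CPM in Trf-high libraries and 4.11 to 9.49 CPM in the others (edgeR adjusted p = 0.024 against Dcn-high and 0.018 against Rgs5-high, and 0.038 and 0.03 with the block), and the call against Dcn-high cells missed with equal totals (0.053). Msx1, a homeobox target of BMP signals, had no read in Trf-high cells and 34.0 and 25.8 CPM in Dcn-high libraries, at least 69.7-fold more (edgeR adjusted p = 0.016, and 0.045 with the block). A Msx1 read was found in 75.0% and 60.0% of Dcn-high wells. Its level in Rgs5-high libraries (5.51 and 3.40 CPM) was at least 10.4-fold above Trf-high cells (edgeR adjusted p = 0.027, and 0.063 with the block). All 20 calls on these 12 genes kept their direction under the other scalings tried, and 10 stayed called with the block, 12 with every well scaled to the same total and 13 without the wells with an Epcam read.

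**Figure D5:**
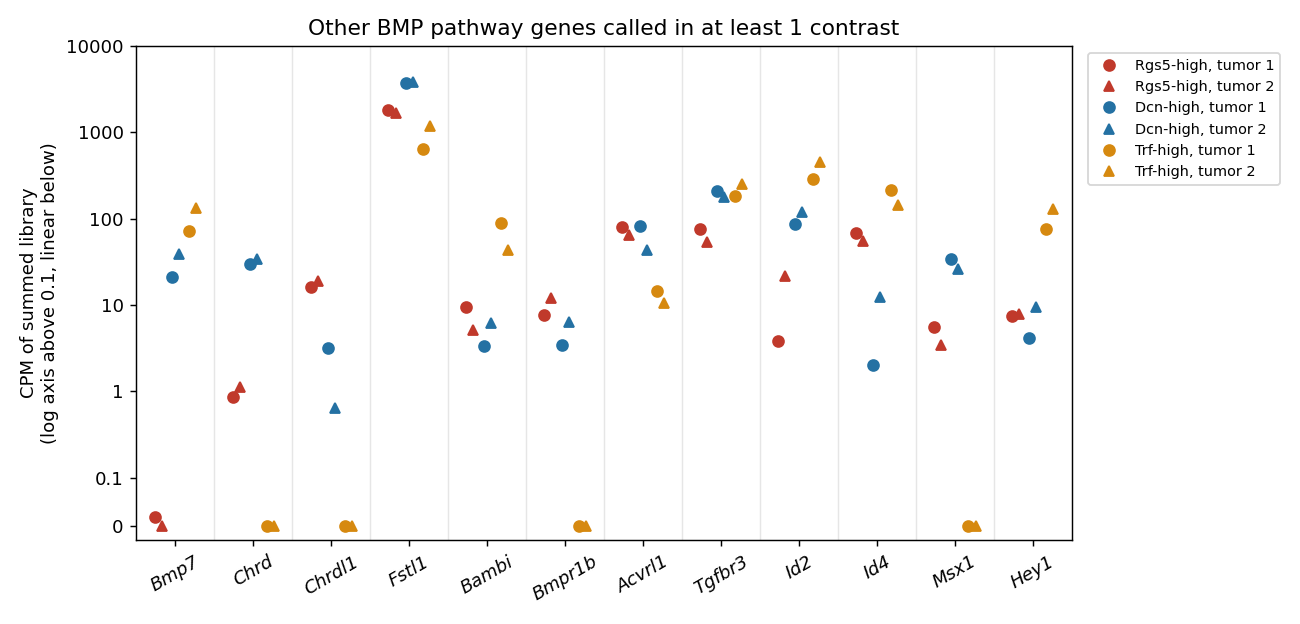
Level in CPM (y axis, logarithmic above 0.1 and linear below) of the 12 other pathway genes (x axis) called in at least 1 contrast, in the 6 summed libraries, with circles for tumor 1 and triangles for tumor 2. Bmp7 is at 0.0181 and 0 CPM in Rgs5-high libraries, and Chrd, Chrdl1, Bmpr1b and Msx1 are at 0 in both Trf-high libraries.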

How the data were processed

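The deposited counts are raw reads per RefSeq gene, which a sequencing facility made for the authors from 43 bp reads with STAR (defaults, mm10). The second deposited table holds RPKM that rpkmforgenes gave from the same reads. Whether the counting used strand or reads with several alignments is not given in the sources used here, so reads from overlapping genes cannot be told apart. The 9 genes, the lists and the tests were chosen with earlier results of these data known, and the motifs after the calls were known.

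A well was high for Rgs5, Dcn or Trf at 0.5 of the gene's 99th percentile of log2(RPKM + 1), and a well high for more than 1 gene went to the largest ratio (32, 20 and 7 wells of the Rgs5-high, Dcn-high and Trf-high classes). Class and tests read the same cells, so Rgs5, Dcn and Trf are not results. Counts were summed per class and tumor (2279188 to 55315664 reads in a library) and tested with edgeR 4.0.16 (TMM, glmQLFit, glmQLFTest, Benjamini-Hochberg over genes with a mean of at least 1 RPKM, adjusted p of 0.05) with no covariate. Alternatives included DESeq2 1.42.0. SE is the fold change divided by the root of F. The smallest exact permutation p of 2 against 2 is 0.333, so single values carry no test. Libraries are paired by animal, and their deviations from the class means correlated by 0.15, 0.07 and -0.00. In simulated data, edgeR called 8 of 100 genes changed 4-fold and 57 of 100 changed 16-fold between Trf-high and Dcn-high, and 5 and 62 between Trf-high and Rgs5-high. The simulation changed only genes above a minimum mean level and drew all libraries independently. Its rates do not cover genes all but absent from a class or read in few wells. Other pathway genes are named where called in at least 1 contrast, and likeness partners where r was at least 0.4 in both tumors, among the 3 highest for a gene read in 20% of wells. A gene of the fixed pathway lists is not reported here and is left out of their counts. Coordinates are from RefSeq, GRCm38.p6.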

Additional observations from a re-analysis of the deposited data

Results flagged for a closer look

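Some of the 9 genes were read in wells that no comparison used. Reads in a handful of such wells are enough to pass the limit that a count of 0 allows, so these are given as values only. In the 41 wells with fewer than 10000 endogenous reads (215 to 9665, median 999), Nbl1 and Bmpr2 were each read in 12.2% (5 wells, exact binomial 95% interval 4.08 to 26.2%). In the 23 wells of no class (10281 to 448288 reads, median 75061), Nbl1 was read in 39.1% (19.7 to 61.5%), Bmpr1a in 43.5% (23.2 to 65.5%) and Bmpr2 in 60.9% (38.5 to 80.3%). Their Bmp5 reads came from 2 wells, both of tumor 1.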

How the results depend on the processing

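Leaving out 1 tumor leaves no residual spread, so those values carry no test. Without tumor 1 and without tumor 2 the Bmp5 difference between Rgs5-high and Dcn-high cells was 7.25 and 4.85, and without tumor 1 that between Trf-high and Rgs5-high cells was -6.76 and that of Gdf10 was 7.97. Without tumor 2 these last differences are not given, since in tumor 1 the Trf-high library had no Bmp5 read and the Rgs5-high library no Gdf10 read. The 9 Trf-high wells of tumor 1 limit every Trf-high value.

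With the replicate block, in which libraries of a tumor are paired, the BMP genes called numbered 0 in both contrasts that had a call, and the genes called in all numbered 335, 512 and 813 for Rgs5-high against Dcn-high, Trf-high against Dcn-high and Trf-high against Rgs5-high, where the fit without it called 646, 963 and 1341. DESeq2 called 3, 2 and 3 BMP genes and 1782, 2704 and 2910 genes in all. ERCC totals gave 0 BMP genes in the first contrast and 979 genes in all, with 15.9% of the calls higher where TMM gave 35.0%. In the third contrast 68.7% were higher where TMM gave 41.8%. At an adjusted p of 0.001 the counts of BMP genes and of all genes were 0 in every contrast. In the first contrast the BMP genes called fell to 0 with filterByExpr, with a cut of 0.6 and without cycling wells. With every well scaled to the same total the 1 gene called there was Gdf10 in place of Bmp5. In the second contrast the count was 1 without wells high for more than 1 gene. In the third it was 1 with wells of at least 50000 reads and 1 without cycling wells, with Gdf10 lost in both. It stayed at 2 with filterByExpr, where Bmp4 came in for Gdf10, and without wells high for more than 1 gene, where Nbl1 did.

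Reversals among the member differences were all in uncalled ones. For Bmp2 between Trf-high and Dcn-high cells they were -0.08 with the block, -1.36 without wells high for more than 1 gene, -0.29 with equal totals and -0.42 without the top wells, and between Trf-high and Rgs5-high cells 0.28 with ERCC totals and 0.12 without cycling wells. Gdf10 between Trf-high and Dcn-high cells was -0.54 with equal totals and -0.54 without the top wells. With ERCC totals Nbl1 and Bmpr1a between Rgs5-high and Dcn-high cells were -0.23 and -0.50, and Bmper and Bmpr2 between Trf-high and Rgs5-high cells were 0.44 and 0.41. Bmper was 0.08 there without wells high for more than 1 gene, and Bmpr2 0.13 with equal totals. Without the top Bmper wells, which held every Trf-high read, Bmper between Trf-high and Rgs5-high cells was -9.95 (edgeR adjusted p = 0.032). Between Trf-high and Dcn-high cells it was -12.31 and was called as well, so that both calls follow from the choice of wells. The cause of these changes was not tested.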

Other observations

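Both Bmp6 and Sostdc1 were below the filter for the tests and were singled out after their values were seen. Bmp6, a ligand related to Bmp5 and Bmp7, had no read in 504 Rgs5-high wells, 12 and 26 reads in the Dcn-high wells of tumors 1 and 2, and 9 and 32 reads in the Trf-high wells. The Dcn-high reads came from 2 and 3 wells and the Trf-high reads from 1 and 2. Sostdc1, a secreted antagonist of BMP and Wnt signals, had no read in Rgs5-high wells, 51 reads in 1 Dcn-high well of tumor 1, and 90 and 15 reads in 3 and 2 Trf-high wells. Its Trf-high libraries had 39.5 CPM in tumor 1 and 3.24 CPM in tumor 2, so its level rested on tumor 1. The wells in no class had 50.3 and 3.66 CPM of Sostdc1, from 1 well in each tumor (95 and 3 reads). No test is given for these values, and the summed epithelial markers were highest in the same Trf-high libraries.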
